A study of Homo sapiens with 4 samples.

Results

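The genes described here encode chromatin remodellers of the SMARC, ARID, CHD and INO80 families. They were chosen by symbol: every probe set whose 1 gene symbol in the platform annotation begins with SMARC, ARID or INO80, or is CHD followed by a number, with the highest mean over the 4 arrays standing for a gene. The rule found 37 genes of the 17687 measured, 13 SMARC, 9 ARID, 9 CHD and 6 INO80 genes, and each had 1 probe set. ARID4A and CHD2 were not analysed here. The rule picks genes by name, and its step by highest mean decided nothing because each gene had 1 probe set. The families themselves were chosen with earlier results of these data known.

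Total RNA came from A549 cells, a human cell line derived from a lung adenocarcinoma, whose LDOC1, a gene for a small leucine zipper protein, was depleted with a short hairpin RNA. All 4 arrays share that hairpin and puromycin in the medium. The group called H2BK120R (2 arrays) also expressed histone H2B with the lysine that accepts monoubiquitin changed to arginine, and the group called vector (2 arrays) was its control. According to the submitters' design text, the hairpin increased H2B monoubiquitylation (the mark H2Bub1) and the mutant reduced it. Cells given unmutated H2B were not analysed here, so the effect of the mutation and that of added histone cannot be told apart. Whether a line is 1 clone, which promoter drives the histone, and whether replicates are separate cultures is not stated in the labels. The p-values below therefore measure only how these 4 arrays scatter, which may be technical scatter.

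Values are log2 levels as deposited, so a difference of 1 is a doubling if the base is 2, which was inferred from the range of 1.56 to 19.15. The array medians lay between 6.40 and 6.43, and pairs of arrays correlated at 0.990 to 0.994 across probe sets. In the check of the cell type, KRT8 (17.11 to 17.20), KRT18 (14.92 to 15.20), ALDH1A1 (17.64 to 17.80), NQO1 (15.59 to 15.86), AKR1C1 (14.29 to 14.50) and AKR1B10 (13.49 to 13.79) were bright, as A549 is known for, while EPCAM (5.16 to 5.76) and KRT19 (6.31 to 7.10) were near or under the array median. Of 9 measured markers of leukocytes, endothelium and fibroblasts, CD68 (7.77 to 7.97) and COL1A2 (8.10 to 8.41) lay above the array median in all 4 arrays, and 0 of the 9 had an unadjusted p under 0.05. Their part in the results was not tested.

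Remodellers use the energy of ATP to slide, evict or exchange nucleosomes. In the SWI/SNF complexes (BAF and PBAF) an ATPase, SMARCA2 or SMARCA4, works with SMARC and ARID subunits, whereas the ISWI ATPases SMARCA1 and SMARCA5 space nucleosomes. CHD proteins join an ATPase to paired chromodomains, which in some members bind methylated histone H3, and CHD3 to CHD5 serve the NuRD complex, which also deacetylates histones. The INO80 complex repositions nucleosomes and acts on those that hold the variant H2A.Z. SWI/SNF genes are known as tumour suppressors in lung cancer, and A549 itself is known to carry an inactivating SMARCA4 mutation. H2Bub1 sits in the nucleosome that these machines act on.

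No remodeller gene passed the whole-array threshold, and the differences were small. The groups were compared with limma's moderated test, and p-values were adjusted by Benjamini and Hochberg's method over the whole table of 21448 probe sets. In bulk RNA, a change in fewer cells and a smaller change in every cell cannot be told apart. Of the 37 genes, 0 had an adjusted p under 0.05 (background 0%), and the smallest limma adjusted p among them was 0.693, that of CHD8. At an unadjusted p under 0.05 there were 3 genes (8.11% of 37), against 6.70% of all probe sets. They were CHD8, CHD6 and SMARCA1. All 3 were higher with H2BK120R (8.11% of 37, against 3.62% of all 21448 probe sets). Among the 1437 probe sets at this level over the whole array, 777 were higher with H2BK120R. The share of 8.11% is near the background of 6.70%, and with 3 genes neither comparison is a result about the families. The sizes of these differences moved with single arrays. That of CHD8 was 0.295 without vector replicate 2 and 0.945 without vector replicate 1. That of CHD6 was 0.305 without vector replicate 1 and 0.565 without vector replicate 2. For SMARCA1 the range was 0.22 to 0.42 with 1 array left out. SMARCA4, lower on average, was at -1.015 without vector replicate 2 and at 0.015 without vector replicate 1.

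Over the 37 genes, 23 (62.2%) had a higher mean with H2BK120R, 13 a lower one and 1 an equal one. Over all genes with 1 symbol, 50.1% had a higher mean. The median difference was 0.11, beside 0.005 over all genes with 1 symbol, and the range ran from -0.50 (SMARCA4) to 0.62 (CHD8). Both arrays with H2BK120R lay above both vector arrays for 7 genes (18.9%, background 18.6%) and below them for 2 (5.41%, background 17.9%). The 7 were CHD8, CHD6, CHD7, SMARCA1, SMARCAL1, SMARCC2 and ARID1B, and the 2 were INO80C and SMARCD1. For the other 28 genes the groups overlapped. The share that separated upward thus matched that of all probe sets, and the share that separated downward was below it. The smallest two-sided p that an exact permutation test of 1 gene allows with groups of 2 is 0.333.

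**Figure D1:**
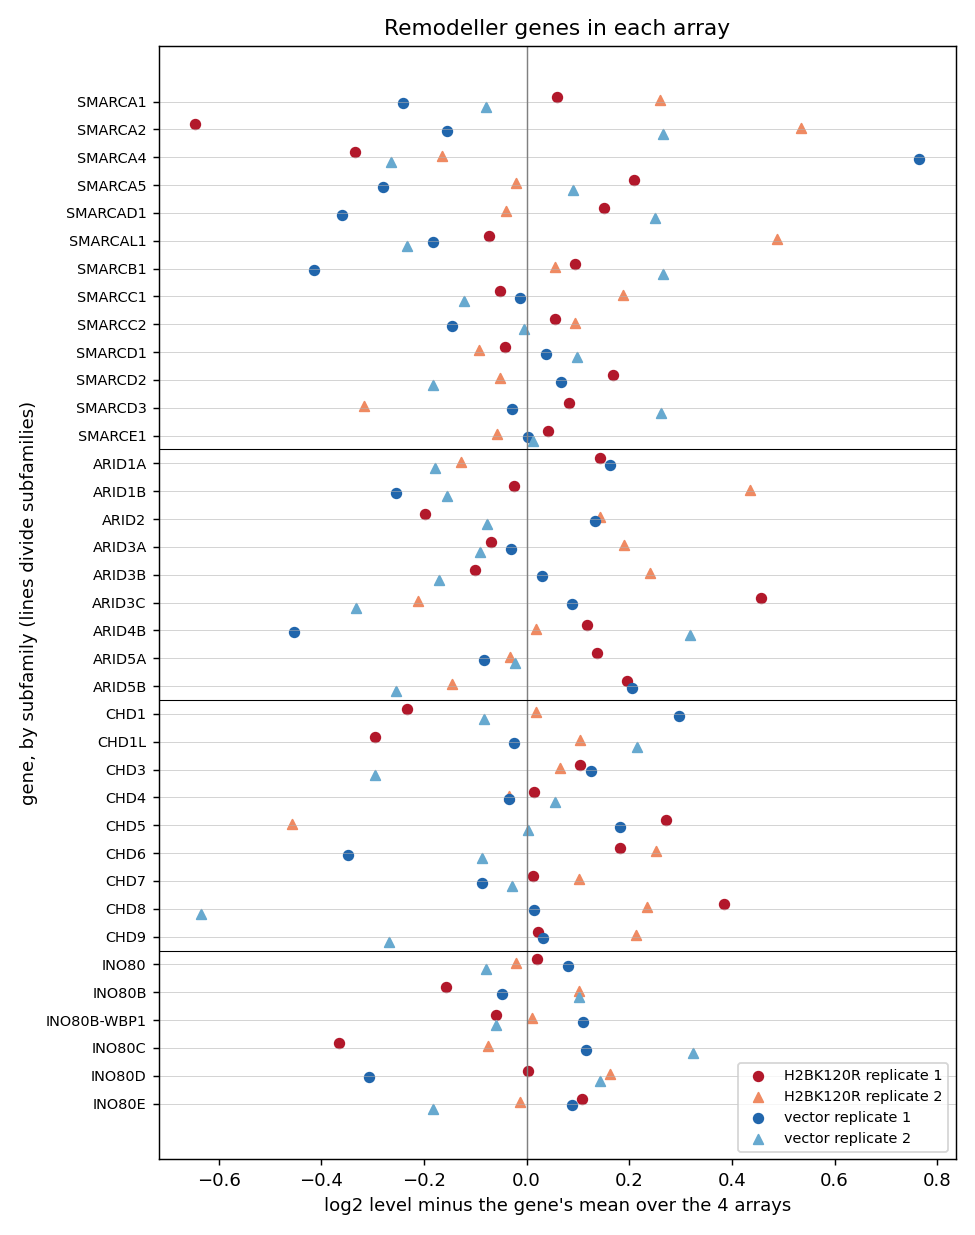
Log2 level of each of the 37 genes in each of the 4 arrays (x axis), as the deviation from the gene's mean, with genes grouped by subfamily (y axis). Red and orange points are H2BK120R, blue points are vector, and circles are replicate 1. The widest rows are SMARCA2, whose H2BK120R arrays stand 1.18 apart, and SMARCA4, whose vector replicate 1 stands alone.

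The SMARC, ARID and CHD medians lay close together and that of INO80 lay near 0. The median difference was 0.115 for SMARC, 0.12 for ARID, 0.115 for CHD and -0.025 for INO80. The 6 INO80 genes include INO80B (-0.055) and the readthrough gene INO80B-WBP1 (-0.05), whose probe sets may read the same transcripts. Higher means with H2BK120R were found for 8 of 13 SMARC, 8 of 9 ARID, 5 of 9 CHD and 2 of 6 INO80 genes, beside 50.1% of all genes. The counts at an unadjusted limma p under 0.05 were 1 (7.69%), 0, 2 (22.2%) and 0, against 6.70% of all probe sets. With so few genes in a family, these shares are not a result about any family. These medians moved with single arrays. Without vector replicate 1 the SMARC median was 0.005, and without vector replicate 2 the CHD median was 0.025 and the ARID median 0.04. The INO80 median was 0.01 without H2BK120R replicate 1. No test between families was run, since the members were chosen with earlier results known.

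**Figure D2:**
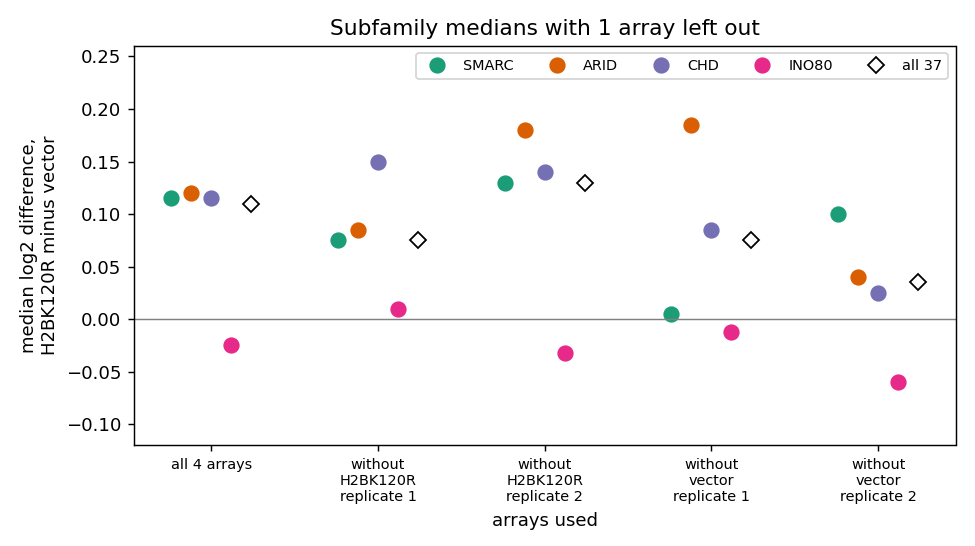
Median log2 difference, H2BK120R minus vector (y axis), of each subfamily and of all 37 genes, with all 4 arrays and with each array left out (x axis). Over the settings with 1 array left out, the SMARC median lies between 0.005 and 0.13 and the ARID median between 0.04 and 0.185. The CHD median lies between 0.025 and 0.15 and the INO80 median between -0.06 and 0.01.

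Among the SMARC genes, the ATPases varied most. SMARCA4 encodes BRG1, the SWI/SNF ATPase whose gene is mutated in A549, so its transcript level here says nothing of a working protein. It was at 5.90 and 6.07 in the H2BK120R arrays and at 7.00 and 5.97 in the vector arrays (replicates 1 and 2 in this order here and below). Vector replicate 1 was the high array and the other 3 lay within 0.17 of each other. The difference of -0.50 ± 0.35 (SE) had a limma adjusted p of 0.810, and it was 0.015 without vector replicate 1. SMARCA2 encodes BRM, the paralogue that can take its place in SWI/SNF. It was at 6.13 and 7.31 with H2BK120R and at 6.62 and 7.04 with the vector. The H2BK120R arrays enclosed both vector arrays, and the difference of -0.11 ± 0.37 (limma adjusted p = 0.963) became 0.48 when H2BK120R replicate 1 was left out, -0.70 when replicate 2 was, and 0.10 without vector replicate 2. The sign of SMARCA4 thus turned with 1 of the 4 arrays and that of SMARCA2 with either of 2.

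The ISWI ATPases were both higher on average. SMARCA1, known as SNF2L, was at 12.65 and 12.85 with H2BK120R and at 12.35 and 12.51 with the vector. Both H2BK120R arrays were above both vector arrays, though the nearest 2 arrays of the groups were closer to each other than the replicates within a group. The difference was 0.32 ± 0.14 (SE), with a 95% confidence interval of 0.018 to 0.62 and a limma adjusted p of 0.745. SMARCA5, known as SNF2H and the ATPase of most ISWI complexes, was at 11.05 and 10.82 with H2BK120R and at 10.56 and 10.93 with the vector. Its groups overlapped, and the difference of 0.19 ± 0.18 (limma adjusted p = 0.854) was 0.005 without vector replicate 1. SMARCA1 is shown by the 250 bases before its start in RefSeq, since it is 1 of the 3 genes at an unadjusted p under 0.05. The window is chrX:129523491-129523740 on the minus strand of GRCh38.p14, outside the annotated gene. It held none of the motifs searched for, listed further on, so no base is in capitals.

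SMARCA1: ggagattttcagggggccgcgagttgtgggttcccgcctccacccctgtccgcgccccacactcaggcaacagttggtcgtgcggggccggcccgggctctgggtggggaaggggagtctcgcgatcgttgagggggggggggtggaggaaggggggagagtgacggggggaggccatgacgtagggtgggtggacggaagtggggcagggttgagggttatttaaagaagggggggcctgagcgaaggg

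The remaining SMARC ATPases act largely in DNA repair and replication. SMARCAL1, which anneals DNA strands at stalled forks, was at 7.79 and 8.35 with H2BK120R and at 7.68 and 7.63 with the vector. The vector arrays differed by 0.05 and the H2BK120R arrays by 0.56, and the lower of the latter still lay above both vector arrays. The difference was 0.415 ± 0.25 (limma adjusted p = 0.777), and 0.135 without H2BK120R replicate 2. SMARCAD1, which helps to restore silent chromatin after replication, was at 9.90 and 9.71 with H2BK120R and at 9.39 and 10.00 with the vector, which enclosed them. Its difference of 0.11 ± 0.22 turned to -0.195 without vector replicate 1.

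The 7 SMARC genes for core subunits without ATPase activity stayed within a narrow range, from -0.235 (SMARCD3) to 0.15 (SMARCB1 and SMARCC2), with 4 higher and 3 lower. SMARCC2, a scaffold subunit (BAF170), was at 15.31 and 15.35 with H2BK120R and at 15.11 and 15.25 with the vector. The groups did not overlap, and the difference was 0.15 ± 0.10, with a 95% confidence interval of -0.077 to 0.38 and a limma adjusted p of 0.801. Its interval was the narrowest of the 37. SMARCD1 was the 1 SMARC gene with both H2BK120R arrays (13.36 and 13.31) below both vector arrays (13.44 and 13.50), with a difference of -0.135 ± 0.12 (limma adjusted p = 0.846). SMARCB1, whose loss drives rhabdoid tumours, was at 10.15 and 10.11 with H2BK120R and at 9.64 and 10.32 with the vector. Its vector arrays lay on either side of the others. SMARCC1, the other scaffold subunit, differed by 0.135 ± 0.14, SMARCD2 by 0.115 ± 0.16, SMARCD3 by -0.235 ± 0.27 and SMARCE1, a subunit with a DNA-binding HMG box, by -0.015 ± 0.12.

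**Figure D3:**
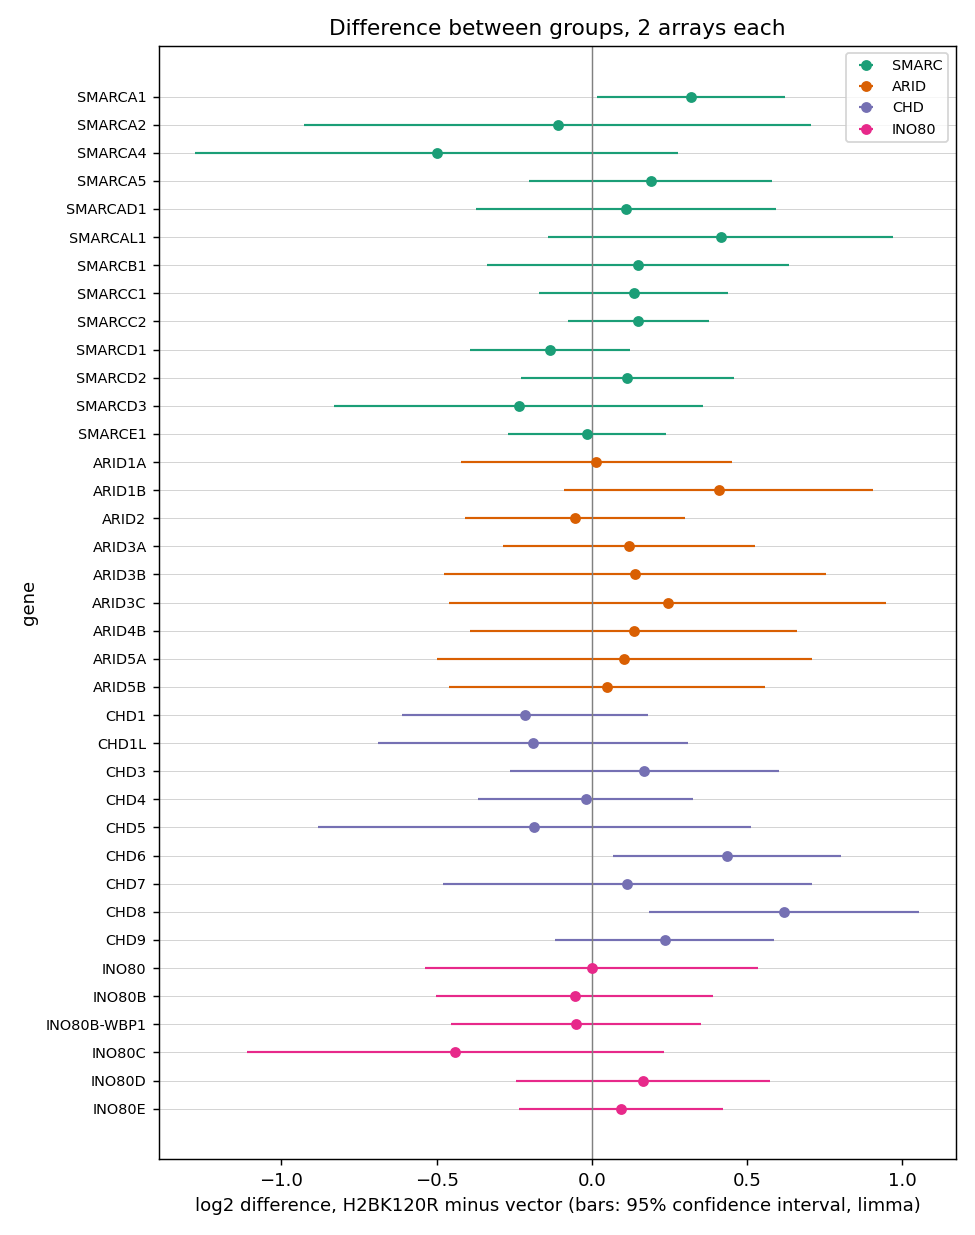
Log2 difference, H2BK120R minus vector, of each gene (points) with limma's 95% confidence interval (bars), coloured by subfamily, with 2 arrays per group. The intervals of CHD8, CHD6 and SMARCA1 lie above 0 without adjustment for the number of genes, and those of the other 34 genes cross 0.

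ARID genes share a DNA-binding domain and only some serve SWI/SNF. ARID1A, the BAF subunit most often mutated in cancer, was at 9.78 and 9.51 with H2BK120R and at 9.80 and 9.46 with the vector. The replicate 1 arrays of both groups were high and the replicate 2 arrays low, and the difference was 0.015 ± 0.20 (limma adjusted p = 0.990). Its sign turned under quantile normalization (-0.024). ARID1B, its paralogue and alternative in BAF, was at 8.50 and 8.96 with H2BK120R and at 8.27 and 8.37 with the vector. Both H2BK120R arrays were higher, and the difference was 0.41 ± 0.23, with a limma adjusted p of 0.767. It was 0.18 without H2BK120R replicate 2, the highest array. ARID2, the PBAF subunit, was at 11.59 and 11.93 with H2BK120R and at 11.92 and 11.71 with the vector. It differed by -0.055 ± 0.16 and was the 1 ARID gene with a lower mean.

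The 6 measured ARID genes outside SWI/SNF all had a higher mean with H2BK120R, by 0.05 to 0.245, but the groups overlapped for each of them. Only 1 of the 6 kept its sign with any array left out, against 50.4% of all genes. ARID3C was the dimmest, at 3.21 and 2.54 with H2BK120R and at 2.84 and 2.42 with the vector, with a mean below the lower quartile of all probe sets, where a level may be background. The difference was 0.245 ± 0.32 (limma adjusted p = 0.897). ARID3A, a transcription factor known from B cells, was at 9.55 and 9.81 with H2BK120R and at 9.59 and 9.53 with the vector, with a difference of 0.12 ± 0.18 (limma adjusted p = 0.916). ARID4B, a subunit of the SIN3 corepressor complex, was at 9.85 and 9.75 with H2BK120R and at 9.28 and 10.05 with the vector. The vector arrays stood 0.77 apart, on either side of the mutant arrays, and the difference of 0.135 ± 0.24 was -0.25 without vector replicate 1. ARID3B differed by 0.14 ± 0.28, ARID5A by 0.105 ± 0.27 and ARID5B by 0.05 ± 0.23.

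Within the CHD family, the genes of class 3, CHD6 to CHD9, held the 3 highest differences of the family. All 4 had a higher mean with H2BK120R, with a median difference of 0.335, and 3 of the 4 had both H2BK120R arrays above both vector arrays (background 18.6%). Such separation was not particular to the class. Among the 10 measured SNF2-family ATPases with other names, 4 (40%) separated upward and 1 downward. The sign of each of the 4 class 3 genes was the same with any array left out, which held for 50.4% of all genes. For CHD6, CHD7 and CHD8 this follows from the separation of their groups, so only CHD9 adds to it. With 1 array left out the class median ran from 0.22 to 0.40. None passed the adjusted threshold, and no test of the class against others was run.

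CHD8, a regulator of Wnt target genes and a gene known from autism, had the largest difference of the 37. It was at 12.12 and 11.97 with H2BK120R and at 11.75 and 11.10 with the vector. Both H2BK120R arrays were above both vector arrays, and vector replicate 2 was far below the other 3. The means were 12.05 ± 0.11 and 11.43 ± 0.46 (SD, n = 2 each), and the difference was 0.62 ± 0.20 (SE), or 1.54-fold, with a 95% confidence interval of 0.18 to 1.06. The gap between the vector arrays, 0.65, was as large as this difference, and the difference was 0.295 without vector replicate 2 and 0.945 without vector replicate 1. CHD6, a remodeller linked to the oxidative stress response, was at 10.73 and 10.80 with H2BK120R and at 10.20 and 10.46 with the vector. The groups were apart by more than the replicates were from each other, with a difference of 0.435 ± 0.17, a 95% confidence interval of 0.068 to 0.80 and a limma adjusted p of 0.745.

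CHD9 was at 11.45 and 11.64 with H2BK120R and at 11.46 and 11.16 with the vector. Its groups overlapped by 0.01, and the difference was 0.235 ± 0.16 (limma adjusted p = 0.800). CHD7, the gene of CHARGE syndrome, was at 6.38 and 6.47 with H2BK120R and at 6.28 and 6.34 with the vector, which made it the smallest difference of the class, 0.115 ± 0.27 (limma adjusted p = 0.946). The window before 1 RefSeq start of CHD8 is shown because CHD8 had the largest difference. It is chr14:21437276-21437525 on the minus strand of GRCh38.p14 and lies inside the annotated gene, which has a further start upstream. Capitals mark a CCAAT box that begins 31 bases before the start and a GC box (GGGCGG) that begins 17 bases before it.

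CHD8: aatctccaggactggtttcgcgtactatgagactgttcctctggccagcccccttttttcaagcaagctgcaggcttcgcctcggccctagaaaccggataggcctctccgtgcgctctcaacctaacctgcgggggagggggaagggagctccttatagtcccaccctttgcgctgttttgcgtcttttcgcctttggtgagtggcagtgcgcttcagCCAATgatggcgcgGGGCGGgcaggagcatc

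The other CHD genes were equal or lower on average, apart from CHD3. CHD1, which follows RNA polymerase through active genes and binds trimethylated H3K4, was at 10.56 and 10.81 with H2BK120R and at 11.09 and 10.71 with the vector. Vector replicate 1 was the highest array, and the difference of -0.215 ± 0.18 (limma adjusted p = 0.838) was -0.025 without it. CHD4, the main NuRD ATPase, was at 10.63 and 10.58 with H2BK120R and at 10.58 and 10.67 with the vector. All 4 arrays lay within 0.09, and the difference of -0.02 ± 0.16 had a 95% confidence interval of -0.37 to 0.33. CHD3 differed by 0.17 ± 0.20 and CHD1L, a repair ATPase without chromodomains, by -0.19 ± 0.23. CHD5, known from neural tissue, was at 3.08 and 2.35 with H2BK120R and at 2.99 and 2.81 with the vector, also below the lower quartile, with a difference of -0.185 ± 0.32.

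The INO80 genes had a median difference of -0.025 with all 4 arrays, which was 0.01 without H2BK120R replicate 1. INO80 itself, the ATPase, was at 7.29 and 7.25 with H2BK120R and at 7.35 and 7.19 with the vector, with equal means of 7.27 and a 95% confidence interval of the difference of -0.54 to 0.54. INO80C, a small subunit, was at 3.61 and 3.90 with H2BK120R and at 4.09 and 4.30 with the vector. Both H2BK120R arrays were lower, with a difference of -0.44 ± 0.31 (limma adjusted p = 0.804), but the mean of the gene lies below the lower quartile of all probe sets. INO80D was at 10.61 and 10.77 with H2BK120R and at 10.30 and 10.75 with the vector, a difference of 0.165 ± 0.19 (limma adjusted p = 0.884) that was -0.06 without vector replicate 1. INO80E was at 11.98 and 11.86 with H2BK120R and at 11.96 and 11.69 with the vector, a difference of 0.095 ± 0.15 (limma adjusted p = 0.919).

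INO80B and the readthrough gene INO80B-WBP1 start 64 bases apart in RefSeq and share sequence, so their probe sets may read the same transcripts and are not independent. INO80B was at 8.73 and 8.99 with H2BK120R and at 8.84 and 8.99 with the vector, and INO80B-WBP1 at 9.41 and 9.48 and at 9.58 and 9.41. Both groups overlapped for both, with differences of -0.055 ± 0.20 and -0.05 ± 0.18 (limma adjusted p = 0.966 and 0.965). The 250 bases before the readthrough gene, chr2:74454773-74455022 on the plus strand of GRCh38.p14 and outside the gene, are shown as the stretch upstream of both starts. Capitals mark an ETS motif (CCGGAAG) that begins 12 bases before the start.

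INO80B-WBP1: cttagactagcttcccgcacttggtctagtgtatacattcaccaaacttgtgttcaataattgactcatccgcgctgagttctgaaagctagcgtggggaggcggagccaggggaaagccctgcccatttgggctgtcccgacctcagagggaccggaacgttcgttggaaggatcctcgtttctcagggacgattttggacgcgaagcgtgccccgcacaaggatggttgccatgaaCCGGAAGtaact

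The same window was read for every member that the RefSeq promoter table holds, 29 of the 37 genes with 49 windows, because some genes have several starts. Motifs were searched by exact letters on both strands, and none of them overlaps another in the sequences shown. A GC box (GGGCGG) was in 51.0% of the member windows and 42.6% of all 35114 windows, CCAAT in 20.4% and 32.0%, the ETS motif CCGGAAG in 14.3% and 8.52%, TATAAA in 4.08% and 10.7%, and the E-box CACGTG in 2.04% and 6.35%. The member windows were rich in G and C, with a median of 65.2% against 58.0% over all windows, and their median ratio of observed to expected CpG was 0.818 against 0.558. A motif match describes these letters only. The windows of 1 gene can overlap, so windows are not independent.

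Remodeller genes are long, with a median annotated length of 70925 bases against 25888 for all genes. Across the 37 genes, Spearman's correlation of length with the difference was 0.164, and across 17687 genes it was 0.115. Genes are not independent replicates and all share the same 4 arrays, so both are descriptions.

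Close relatives within the families are set side by side here. The difference was -0.11 for SMARCA2 and -0.50 for SMARCA4, 0.32 for SMARCA1 and 0.19 for SMARCA5, and 0.135 for SMARCC1 and 0.15 for SMARCC2. It was 0.015 for ARID1A and 0.41 for ARID1B, 0.12 for ARID3A and 0.14 for ARID3B, and 0.105 for ARID5A and 0.05 for ARID5B. It was 0.17 for CHD3 and -0.02 for CHD4, and 0.115 for CHD7 and 0.62 for CHD8. Signs differed in 1 of these 8 pairs, CHD3 and CHD4, and the widest spacings were those of CHD7 with CHD8, SMARCA2 with SMARCA4 and ARID1A with ARID1B. The difference within a pair was not tested. ARID4B and CHD1 had no measured partner.

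The replicate arrays often differed by more than the groups. The gap between the 2 vector arrays was larger than the group difference for 24 of the 37 genes (64.9%), against 60.2% of all genes with 1 symbol, and the gap between the H2BK120R arrays was larger for 24 as well, against 52.8% of all genes. The median gap was 0.24 in the vector group and 0.20 in the H2BK120R group. Vector gaps above 0.6 were those of SMARCA4 (1.03), ARID4B (0.77), SMARCB1 (0.68), CHD8 (0.65) and SMARCAD1 (0.61). H2BK120R gaps above 0.6 were those of SMARCA2 (1.18), CHD5 (0.73) and ARID3C (0.67). No gene had a gap above 0.6 in both groups. Of the 37 genes, 15 (40.5%) had the same sign with any 1 array left out, against 50.4% of all genes, and 11 of the 15 were higher with H2BK120R.

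**Figure D4:**
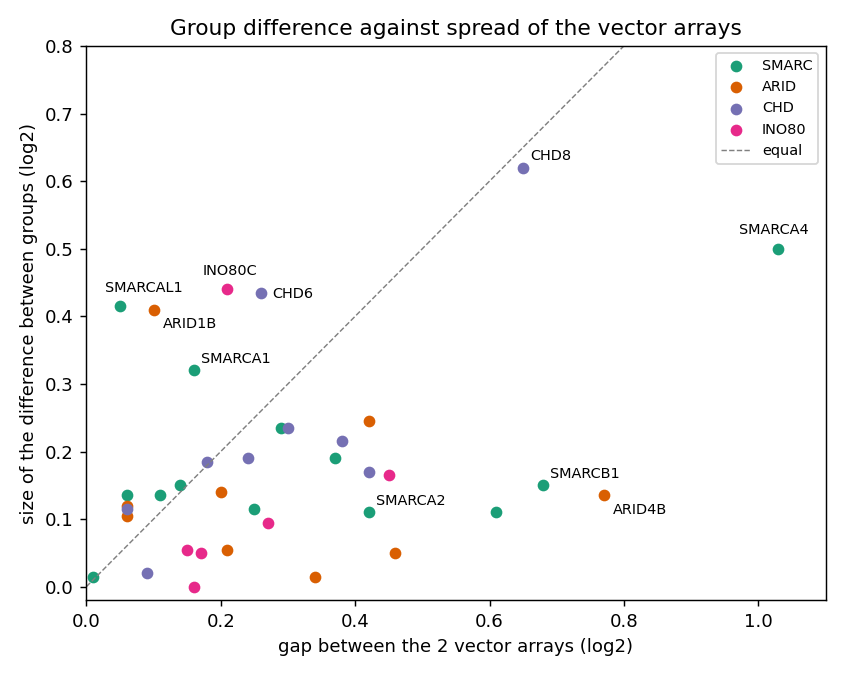
Size of the log2 difference between the groups (y axis) against the gap between the 2 vector arrays (x axis) for the 37 genes, coloured by subfamily, with a dashed line where they are equal. The 24 genes under the line include SMARCA4, ARID4B, SMARCB1 and CHD8, and SMARCAL1, ARID1B, INO80C, CHD6 and SMARCA1 lie well above it.

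The standard errors set what could be seen. The median standard error over the 37 genes was 0.20, against 0.28 over all probe sets, and the median 95% confidence interval reached 0.44 to either side. These 2 standard errors are not matched for level. The fit lets the error vary with level, and only 6 of the 37 had a mean below the median of 6.41 over all probe sets. The bright SMARCC2 had a standard error of 0.10 and the dim ARID3C 0.32. Intervals reached beyond 1 in size for 3 genes, SMARCA4, CHD8 and INO80C. For the other 34, a doubling or a halving lay outside the unadjusted interval. A missed threshold does not show that a gene was equal in the groups.

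Other genes of these pathways were taken from 4 lists of partner subunits and 1 list of further SNF2-family ATPases, none of which carry the family names, and 72 of the 78 genes were measured. Of the 72, 43 (59.7%) were higher and 29 lower, beside 50.1% of all genes higher. The median difference was 0.068, and leaving out vector replicate 1 turned its sign (-0.03). Leaving out H2BK120R replicate 2 brought it to 0.0075. In limma 0 passed the adjusted threshold and 3 (4.17%, background 6.70%) had an unadjusted p under 0.05. The 3 were HELLS, ACTL6B and CDK2AP1. This share was below that of the array as a whole.

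Among 19 BAF and PBAF partners the median was 0.12, with 14 genes higher and 5 lower, and 0.01 without H2BK120R replicate 2. ACTL6B, the actin-like subunit of neuronal BAF, was at 4.09 and 4.07 with H2BK120R and at 3.22 and 3.53 with the vector, a difference of 0.705 ± 0.30 (limma adjusted p = 0.745) at the dim end of the array. SS18, the BAF subunit fused in synovial sarcoma, differed by 0.25 ± 0.14 and BCL7B by -0.32 ± 0.22. The 11 ISWI partners had a median of 0.035, with 7 genes higher and 4 lower, and -0.05 without vector replicate 1. CECR2, BAZ2B and BAZ1A, large subunits that pair with the ISWI ATPases, differed by -0.81 ± 0.43, 0.44 ± 0.25 and -0.27 ± 0.16. CECR2 was at 4.58 in vector replicate 1 and between 2.98 and 3.11 in the other 3 arrays.

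For the 9 measured NuRD partners the median was 0.085, with 5 genes higher and 4 lower, and -0.03 without vector replicate 1. CDK2AP1, a small NuRD subunit, was at 12.34 and 12.57 with H2BK120R and at 11.90 and 12.27 with the vector, a difference of 0.37 ± 0.16 (limma adjusted p = 0.745). GATAD2B, which links its deacetylase and remodelling parts, differed by 0.30 ± 0.15 and MBD3 by -0.185 ± 0.19. The 23 measured partners of the INO80, SRCAP and TIP60 complexes, which share subunits, split into 11 higher and 12 lower, with a median of -0.045. ZNHIT1, of the SRCAP complex, and ACTR8, an actin-related INO80 subunit, differed by -0.51 ± 0.24 and -0.535 ± 0.28, and ING3, of the TIP60 complex, by 0.515 ± 0.26. Their median was 0.02 without H2BK120R replicate 1, so its sign also turned with 1 array.

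The 10 measured SNF2-family ATPases with other names had a median of 0.118, with 6 genes higher and 4 lower, and 0.015 without vector replicate 1. HELLS, an ATPase needed for DNA methylation of repeats, was at 12.73 and 12.68 with H2BK120R and at 12.21 and 12.28 with the vector. The replicates lay within 0.07 of each other and the groups apart, with a difference of 0.46 ± 0.13, a 95% confidence interval of 0.18 to 0.74 and a limma adjusted p of 0.678. SHPRH, a ubiquitin ligase with an SNF2 domain, differed by 0.555 ± 0.26 and BTAF1, which removes TBP from DNA, by 0.24 ± 0.16.

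**Figure D5:**
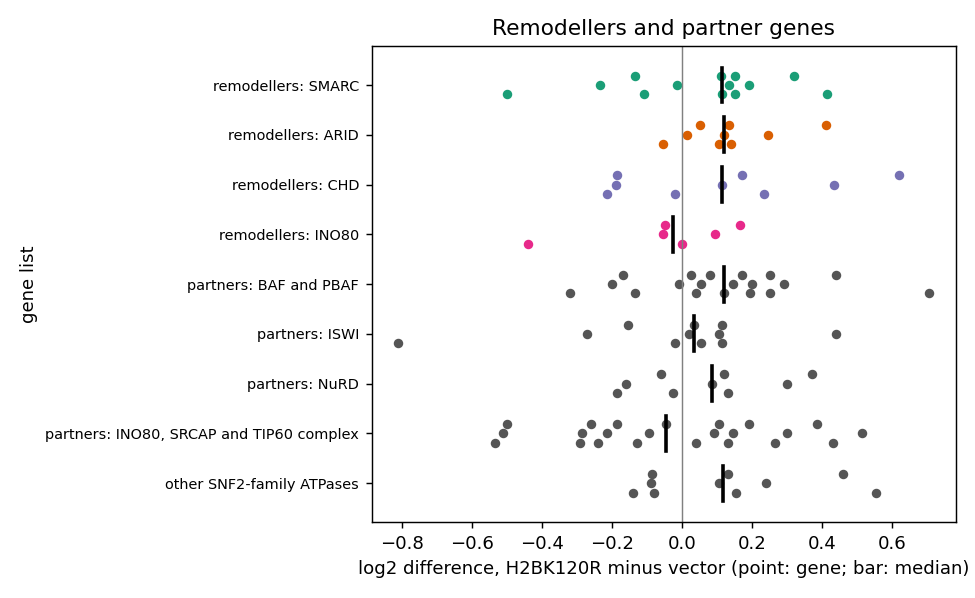
Log2 difference, H2BK120R minus vector (x axis), of single genes (points) and their medians (black bars) in the 4 subfamilies, the 4 partner lists and the list of other SNF2-family ATPases (y axis). Medians run from -0.045 in the INO80, SRCAP and TIP60 partners to 0.12 in the ARID genes and the BAF and PBAF partners, and every list spans 0.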

How the data were processed

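RNA of 4 A549 samples was measured on a whole-transcript array. The authors deposited log2 levels. That these were already normalized between arrays was inferred from their near-equal medians. MAS5 is named in the submitters' processing notes. How background, probe summary and detection were handled is not given in the sources used. The log base was inferred from the range. Groups came from the sample titles.

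GEO's platform annotation gave 1 symbol to 17709 of 21448 probe sets and several to 0, and 3739 stayed unnamed. All 37 member symbols matched the GRCh38.p14 RefSeq table by gene ID. No build is named for the values, so only RefSeq's promoter windows carry coordinates. RefSeq promoters were cut to the 250 bases before the start.

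The 2 groups were compared in limma 3.58.1 (R 4.3.3), with lmFit and trended eBayes, 2 residual and 8.95 prior degrees of freedom, two-sided, on all probe sets, with Benjamini-Hochberg adjustment. The code was tested on simulated data. Lists are described by counts and medians. Figures used Python 3.11.15 and matplotlib 3.10.9.

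The members and lists were chosen with earlier results of these data known. Values in all arrays were given by rule for the 4 genes of each family with the smallest p, for SMARCA4, SMARCA2, ARID1A, CHD4, CHD1 and INO80, and for up to 3 genes per partner list; values of other genes were added after they were seen. A planned comparison of protein lengths was not made, and annotated gene length was used instead. Alternatives were quantile normalization, equal array medians, filters on the dimmest 25% or 50%, probe sets with 1 symbol, eBayes without trend or robust, the replicate number as a block, and each array left out. For arrays, their number limits the precision.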

Additional observations from a re-analysis of the deposited data

How the results depend on the processing

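Under every alternative run, arrays left out included, 0 probe sets and 0 remodeller genes passed an adjusted p of 0.05 in limma, against 1437 probe sets and 3 remodeller genes at an unadjusted p under 0.05. The count of 3 remodeller genes was 0 without the variance trend, 2 after quantile normalization or equal medians, and 0 to 5 when single arrays were left out (0 without either H2BK120R array, 1 without vector replicate 1, 5 without vector replicate 2), while the share of all probe sets at that level ran from 2.31% to 11.3%. A fit with 1 array left out assumes that the lone array varies like the other group. Medians with 1 array left out ranged from 0.035 to 0.13 for all members and from 0.005 to 0.13 for SMARC. They ranged from 0.04 to 0.185 for ARID, 0.025 to 0.15 for CHD and -0.06 to 0.01 for INO80. The difference of ARID1A was -0.024 after quantile normalization. Of the 37 genes, 22 did not keep 1 sign with any array left out. Among the 20 genes given array by array under the naming rule, a difference turned in sign for SMARCA4 (-1.02 to 0.015), SMARCA2 (-0.70 to 0.48), ARID1A (-0.155 to 0.185), ARID3A (-0.01 to 0.25), ARID3C (-0.09 to 0.58), ARID4B (-0.25 to 0.52), CHD4 (-0.065 to 0.025), INO80B-WBP1 (-0.135 to 0.035), INO80D (-0.06 to 0.39) and INO80E (-0.04 to 0.23). For all of these the cause was not tested. With the replicate number as a block the remodeller count was 3, again without a share of all probe sets, and each difference was the same. The labels do not say that the numbers pair cultures, and deviations of same-numbered arrays correlated at 0.141. Averaging the probe sets of a gene was not run, since each member had 1. With the dimmest 25% or 50% left out, 34 or 31 members were left.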
